A study of Mus musculus with 4 samples.

Results

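The genes of the glycolytic enzymes were examined in an RNA immunoprecipitation and sequencing (RIP-seq) experiment on SAFB, or scaffold attachment factor B, which associates with the nuclear matrix and has domains for both RNA and DNA. The members were the entries of the deposited table with the symbols Hk2, Pfkl, Aldoa, Tpi1, Gapdh, Pgk1, Pgam1, Eno1, Pkm and Ldha. These 10 symbols matched 11 of 52189 genes, because Aldoa names a pair of neighbouring gene models. The SAFB RIP (2 libraries) used an antibody against SAFB, and the IgG RIP (2 libraries) used control IgG. Both groups came from AML12 cells, a mouse hepatocyte line, grown with 10% serum, an insulin supplement and 0.1 µM dexamethasone, crosslinked with ultraviolet light and taken as sonicated nuclear lysate. The line was derived from a mouse transgenic for TGF alpha. The labels name no other difference between the groups than the antibody. Each lysate was split between the antibodies, but which libraries share a lysate is not stated, nor is whether equal numbers mark separate experiments, so p-values measure the spread between these libraries, which may be technical. Input RNA is not analysed here, so each value below is relative to the IgG RIP.

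Glycolysis splits glucose into pyruvate in the cytosol and yields ATP and NADH. Hexokinase and phosphofructokinase trap and commit the sugar, aldolase and triose phosphate isomerase make the triose phosphates, and the later enzymes from glyceraldehyde phosphate dehydrogenase to pyruvate kinase recover the energy. In the liver the route also runs backwards as gluconeogenesis, and different isoforms serve these tasks. The mRNAs are translated in the cytoplasm, and several have given rise to many processed pseudogenes, copies of the mRNA inserted elsewhere in the genome.

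Most glycolytic enzyme mRNAs took a smaller share of the SAFB RIP than of the IgG RIP. Together the member entries held 0.231% and 0.225% of all TPM (a share of the library corrected for transcript length) in the SAFB libraries, against 0.377% and 0.348% in the IgG libraries. Of the 10 members tested, 6 fell in the SAFB RIP, namely Aldoa, Pfkl, Ldha, Gapdh, Eno1 and Pkm, and 0 rose. The call was an adjusted p under 0.05 in limma, fitted to log2(TPM + 1) of the 16647 genes that reached 1 TPM in 2 or more libraries and adjusted by the Benjamini-Hochberg method. In that fit 8.30% of genes were lower and 29.8% were higher. Tpi1, Pgk1, Pgam1 and Hk2 did not pass. When a library was left out and the filter was remade on the other 3, the same number of members, 6, were lower each time. When the genes of all 4 libraries were kept instead, an alternative chosen after seeing the data, 0 members passed without SAFB replicate 1 or without SAFB replicate 2, where 7 genes in all were lower, and 6 passed without either IgG library. Under that alternative 0 of the 49 pathway genes described below passed in either direction without SAFB replicate 1 or 2. These are shares of bulk precipitates, so they do not show in how many nuclei a transcript was recovered.

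Library composition moved with the groups. The 3 entries at a ribosomal DNA fragment, AY036118, Gm26917 and Gm42418, held 1.002% and 1.52% of TPM in the SAFB libraries, against 18.7% and 14.8% in the IgG libraries, and protein-coding genes held 83.7% in each SAFB library, against 68.0% and 67.8% in the IgG libraries. Over the whole fit the fold changes had a median of 0.46 on the log2 scale. All 14 hepatocyte markers examined were tested, with summed levels of 6480 and 6742 TPM in the SAFB libraries and 7571 and 7617 TPM in the IgG libraries. They went both ways: 3 were higher (Alb, Serpina1b and Afp), 2 lower (Trf and Cebpa) and 9 did not pass. Shares over all genes tested were 29.8% higher and 8.30% lower. Afp, at 0 in both IgG libraries, passed the filter through the SAFB libraries alone. Of 8 fibroblast or stellate, 4 endothelial, 2 erythroid and 3 muscle markers 0 were tested, and of 4 macrophage markers only Cd68 was. Of 4 cholangiocyte markers the keratin genes Krt7 and Krt19 were abundant, with at least 311 TPM in every library. Sox9 had 38.5 and 37.0 TPM in the SAFB libraries and 54.0 and 57.8 TPM in the IgG libraries. Epcam had at most 0.364 TPM in any library and was not tested. The summed level of the 4 was 870 and 900.5 TPM in the SAFB libraries and 1265 and 910 TPM in the IgG libraries. Of 4 nuclear RNAs examined, Airn at 2.88 and Kcnq1ot1 at 1.57 were higher, and Malat1 at 1.13 and Neat1 at -0.31 did not pass (limma, adjusted p = 0.00373, 0.00868, 0.0740 and 0.0609). After median centring Neat1 was lower, at -0.77 (limma, adjusted p = 0.00857). Without the 3 ribosomal DNA entries 7 members were lower, with a median log2 fold change of -0.99, and among protein-coding genes alone 8 were, with a median of -1.04. The read depth is unknown, since TPM keeps none.

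The first committed steps were represented by Hk2 and Pfkl. Hk2, which encodes hexokinase II, the isoform of muscle and growing cells (mm10 chromosome 6, 82725025 to 82774454, minus strand), stood at 4.82 and 4.09 TPM in the SAFB libraries and 4.44 and 2.44 TPM in the IgG libraries. The groups overlapped, and Hk2 was the least abundant member. Its log2 fold change of 0.33 ± 0.39 (SE) did not pass. Pfkl encodes the liver subunit of phosphofructokinase (chromosome 10, 77986947 to 78010083, minus strand). It had 64.5 and 62.1 TPM in the SAFB libraries, against 137 and 126 TPM in the IgG libraries. Both SAFB libraries lay below both IgG libraries, and the log2 fold change was -1.04 ± 0.11 (limma, adjusted p = 0.00685).

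Aldoa and Tpi1 encode the enzymes that cleave the sugar and interconvert the products. Aldoa encodes aldolase A, which splits fructose bisphosphate (chromosome 7, 126795234 to 126800751, minus strand). It had 381 and 398 TPM in the SAFB libraries, against 883 and 794 TPM in the IgG libraries, and the groups did not overlap. With a log2 fold change of -1.10 ± 0.10 (limma, adjusted p = 0.00605) it had the largest fall among the members as deposited. The second entry named Aldoa (ENSMUSG00000114515, 126800790 to 126809108) lies just upstream on the same strand. It was listed at 0.421 and 1.85 TPM in the SAFB libraries and at 0 in both IgG libraries, and was not tested. Tpi1, the gene of triose phosphate isomerase (chromosome 6, 124810586 to 124814296, minus strand), had 428 and 394 TPM in the SAFB libraries and 500.4 and 438 TPM in the IgG libraries. Its groups did not overlap, but the difference of -0.19 ± 0.12 did not pass (limma, adjusted p = 0.254).

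The payoff phase opens with Gapdh, whose enzyme makes NADH, and Pgk1, whose enzyme makes the first ATP. Gapdh (chromosome 6, 125161715 to 125166467, minus strand) had 96.7 and 105 TPM in the SAFB libraries, against 225 and 161 TPM in the IgG libraries. The groups did not overlap, although the IgG libraries differed from each other more than the SAFB libraries did. Gapdh fell by 0.91 on the log2 scale, with an SE of 0.19 (limma, adjusted p = 0.0250). Without the variance trend it did not pass (limma, adjusted p = 0.0583). Gapdh overlaps Iffo1 on the opposite strand over 68 bases, and Iffo1 had 47.8 and 55.6 TPM in the SAFB libraries and 58.0 and 65.4 TPM in the IgG libraries. Pgk1 (chromosome X, 106187100 to 106203699, plus strand) had 228 and 219 TPM in the SAFB libraries and 272 and 264 TPM in the IgG libraries. The groups stood apart by less than in Gapdh, and the difference of -0.26 ± 0.09 did not pass (limma, adjusted p = 0.0828).

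Pgam1 and Eno1 encode the enzymes that rearrange and dehydrate the phosphoglycerates. Pgam1, for phosphoglycerate mutase (chromosome 19, 41911923 to 41918660, plus strand), had 221 and 193 TPM in the SAFB libraries and 233 and 185 TPM in the IgG libraries. The groups overlapped, and the log2 fold change was -0.01 ± 0.16. Eno1, for enolase alpha (chromosome 4, 150236721 to 150248879, plus strand), had 245 and 221 TPM in the SAFB libraries, against 409 and 384 TPM in the IgG libraries. The groups did not overlap, and Eno1 fell by 0.76 on the log2 scale, with an SE of 0.10 (limma, adjusted p = 0.0105).

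The last steps are those of pyruvate kinase and lactate dehydrogenase. Pkm, for the pyruvate kinase of most tissues other than adult liver (chromosome 9, 59656368 to 59679375, plus strand), had 484 and 488 TPM in the SAFB libraries, against 795 and 805 TPM in the IgG libraries. Replicates differed little in either group, and Pkm stood at -0.72 ± 0.09 (limma, adjusted p = 0.00914). The predicted gene Gm49759 lies within Pkm on the same strand, at 27.4 and 30.0 TPM in the SAFB libraries and 33.4 and 38.03 TPM in the IgG libraries. A small part of the value of Pkm, and up to all of that of Gm49759, is therefore uncertain. Ldha, for the subunit of lactate dehydrogenase that prevails in muscle (chromosome 7, 46841475 to 46855627, plus strand), had 158 and 160.4 TPM in the SAFB libraries, against 306 and 323 TPM in the IgG libraries. The groups did not overlap, and Ldha stood at -0.98 ± 0.09 (limma, adjusted p = 0.00596).

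**Figure D1:**
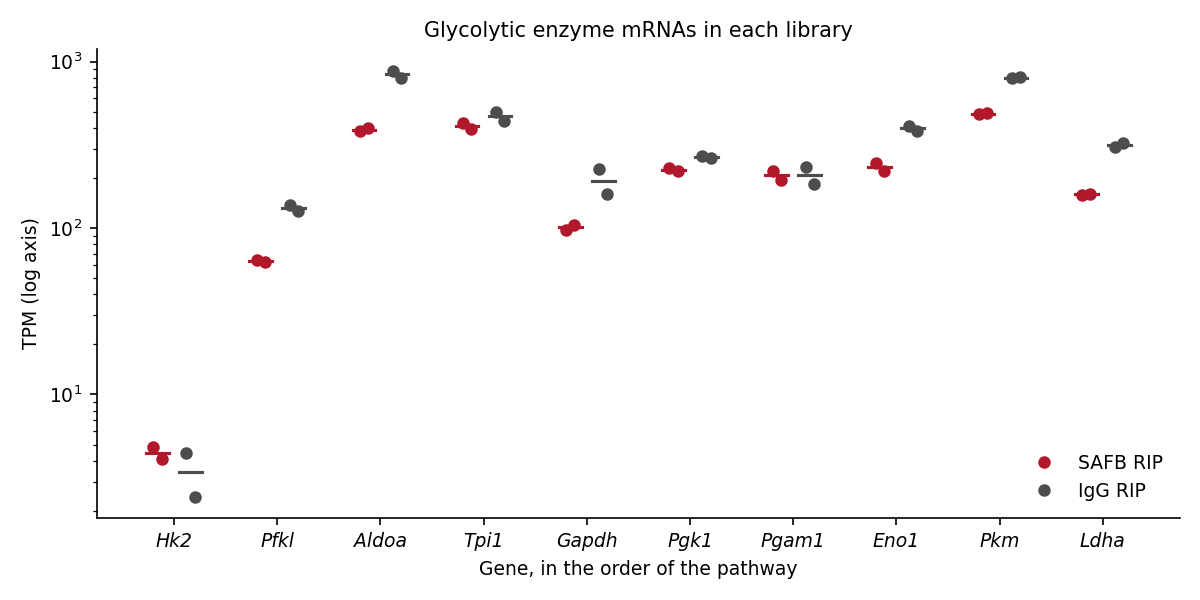
TPM on a log axis for the 10 tested members in the order of the pathway, with a point for each library, SAFB RIP in red and IgG RIP in grey, and a bar at each group's mean. Both SAFB libraries lie below both IgG libraries in 8 members, while Pgam1 and Hk2 overlap.

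In 8 of the 10 members tested both SAFB libraries lay below both IgG libraries, and in 0 above. Over all genes tested the shares were 21.4% below and 52.3% above. Among the 1923 genes that averaged 100 TPM or more, 31.4% lay below, 19.6% were called lower and 41.3% higher. The median log2 fold change was -0.74 for the members, 0.28 for those abundant genes and 0.46 for all genes tested. Among the fold changes of all genes tested, Aldoa stood at percentile 3.91 and Hk2, the highest member, at percentile 45.2.

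Relative to the other genes of each library the members stood lower still. With each library centred on its median, 8 members fell and 0 rose, where 17.6% of all genes were lower and 16.4% higher, and where 35.8% of the genes averaging 100 TPM or more were lower and 24.4% higher. Tpi1 at -0.65 and Pgk1 at -0.72 then passed as lower (limma, adjusted p = 0.0251 and 0.0109), and Pgam1 at -0.47 and Hk2 at -0.13 did not. With a trend on GC content removed in each library, fewer members passed. In that alternative, chosen after seeing the data, Aldoa at -0.48, Ldha at -0.97 and Pgk1 at -0.43 were lower (limma, adjusted p = 0.0177, 0.00649 and 0.0241). Gapdh at -0.47, Pfkl at -0.41, Eno1 at -0.10 and Pkm at -0.04 did not pass there (limma, adjusted p = 0.0708, 0.0556, 0.528 and 0.800).

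**Figure D2:**
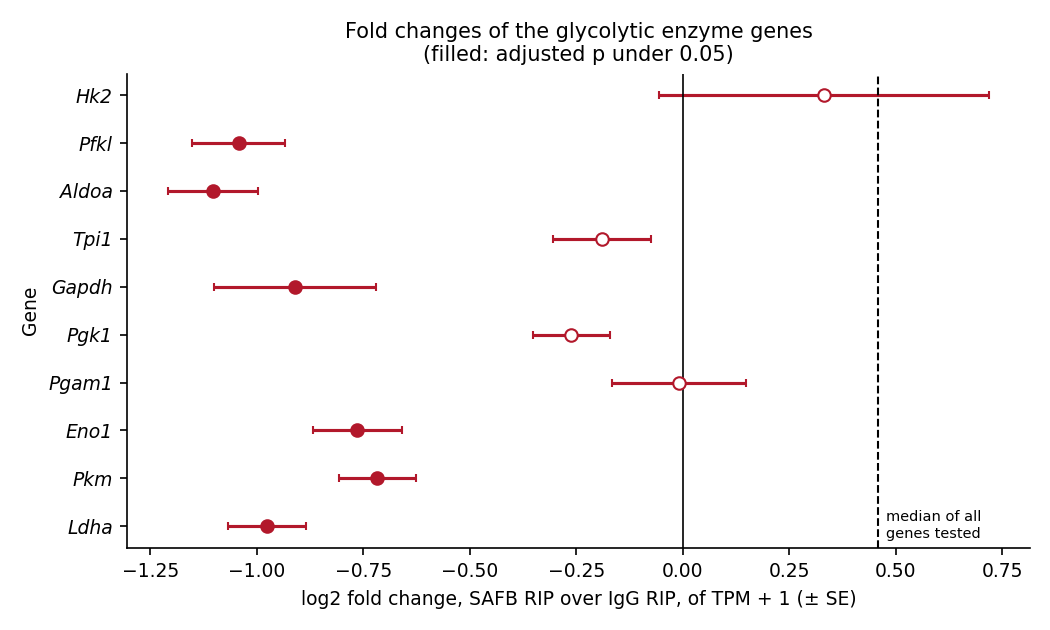
Log2 fold change of TPM + 1 in the SAFB RIP over the IgG RIP for each member, with bars of 1 SE and filled points for an adjusted p under 0.05. The 6 filled points lie between -1.10 and -0.72, and all 10 points lie left of the dashed median of all genes tested at 0.46.

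The order of the levels differed between the groups. In the SAFB RIP Pkm was the most abundant member, at 486 ± 2.86 TPM (SD, n = 2), followed by Tpi1 at 411 ± 24.3 and Aldoa at 389 ± 11.98 TPM, whose libraries overlapped. Eno1 at 233 ± 17.2, Pgk1 at 223 ± 6.22 and Pgam1 at 207 ± 19.7 TPM came next and overlapped with their neighbours. Ldha at 159 ± 1.51, Gapdh at 101 ± 5.70, Pfkl at 63.3 ± 1.66 and Hk2 at 4.45 ± 0.521 TPM were each separate. In the IgG RIP Aldoa led at 838 ± 62.4 TPM, ahead of Pkm at 800.1 ± 7.67 TPM, with overlapping libraries. Tpi1 at 469 ± 44.1, Eno1 at 396 ± 18.1, Ldha at 314 ± 12.1 and Pgk1 at 268 ± 6.21 TPM followed without overlap. Pgam1 at 209 ± 34.4 and Gapdh at 193 ± 45.5 TPM overlapped, and Pfkl at 132 ± 7.52 and Hk2 at 3.44 ± 1.42 TPM were lowest.

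By their medians, the members' gene models were shorter and richer in GC than those of the protein-coding genes tested. Their transcripts, taken as the annotated transcript with the longest coding sequence, had a median length of 1820 bases, against 2909 bases for the 11961 protein-coding genes tested. The members' lengths ranged from 1273 to 5513 bases, against quartiles of 1830 and 4404 bases. Median GC content was 54.3%, with a range of 49.7% to 57.7%, against a median of 50.5% and quartiles of 45.7% and 55.2%. Median gene span was 13156 bases against 23285. Across the 11961 protein-coding genes the log2 fold change had a Spearman rho of -0.51 with GC content, 0.23 with gene span and 0.18 with transcript length. Among the 10 members the rho with GC content was -0.38. All of these points share the same 4 libraries, so the values are descriptions. The part of GC content in the members' fall was not tested beyond the trend removal given above.

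Processed pseudogenes can share reads with their parents, so copies were matched by sequence. Of 13315 annotated pseudogenes, 285 matched a member better than any other protein-coding gene, with at least 80% identity over at least 50% of their length. Gapdh had 202 of them, Ldha 28, Pkm 14, Eno1 12 and Aldoa 10, while Pgk1 and Tpi1 had 7 each, Pgam1 had 5 and Hk2 and Pfkl had 0. Eno1b, itself a retrogene copy of Eno1, was left out of the protein-coding genes compared. Of the 285, 262 were in the table and 183 of these were listed at 0 in every library. The last 120 coding bases of Gapdh, Ldha and Tpi1, stop codon included, show how near or far the copies are, with each base that differs from the parent, or is inserted, in capitals. Sequences are from GENCODE M21 transcripts on mm10, and Gm13394 is printed to where its model ends.
Gapdh: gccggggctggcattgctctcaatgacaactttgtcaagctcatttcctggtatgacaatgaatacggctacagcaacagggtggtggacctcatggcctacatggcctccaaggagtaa
Gm13394: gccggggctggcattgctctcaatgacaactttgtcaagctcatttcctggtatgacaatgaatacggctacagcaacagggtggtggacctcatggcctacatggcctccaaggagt
Gm17068: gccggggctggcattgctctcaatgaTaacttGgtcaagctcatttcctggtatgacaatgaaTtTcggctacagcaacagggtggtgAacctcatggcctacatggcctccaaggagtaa
Gm12403: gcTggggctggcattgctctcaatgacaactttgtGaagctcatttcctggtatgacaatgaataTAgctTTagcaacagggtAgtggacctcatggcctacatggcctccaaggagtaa
Ldha: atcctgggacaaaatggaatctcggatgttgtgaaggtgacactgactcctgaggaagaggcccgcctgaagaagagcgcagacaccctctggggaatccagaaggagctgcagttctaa
Gm13315: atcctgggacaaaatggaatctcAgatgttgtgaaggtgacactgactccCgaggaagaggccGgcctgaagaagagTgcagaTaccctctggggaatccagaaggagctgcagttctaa
Tpi1: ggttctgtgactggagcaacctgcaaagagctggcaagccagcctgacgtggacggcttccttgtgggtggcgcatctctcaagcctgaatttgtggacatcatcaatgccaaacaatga
Tpi-rs5: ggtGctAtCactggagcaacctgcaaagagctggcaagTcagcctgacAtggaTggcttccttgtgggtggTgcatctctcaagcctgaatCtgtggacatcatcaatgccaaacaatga
The stretch of Gm13394 (chr2:28933610-28933727, minus strand) does not differ from Gapdh, whereas Gm17068 (chr19:16278656-16278776, plus strand) has 4 differing bases and 1 inserted base and Gm12403 (chr4:41169485-41169604, plus strand) has 7 differing bases. Gm13315 (chr2:14722005-14722124, plus strand) differs from Ldha at 5 bases and Tpi-rs5 (chr10:19102198-19102317, plus strand) from Tpi1 at 8. The longest run shared exactly with the parent anywhere in the transcript was 654 bases for Gm13394, but 65 for Gm17068, 62 for Gm12403, 54 for Gm13315 and 32 for Tpi-rs5.

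Among 21 tested copies with 99% identity or more, 6 were lower in the SAFB RIP and 0 higher. Among 13 tested copies under 95%, 10 were higher and 0 lower. Over all genes tested 8.30% were lower and 29.8% higher. Of those 13 copies, 5 had passed the filter through the SAFB libraries alone and so had to lie above the IgG libraries. Tpi-rs5, described below, depended on the SAFB libraries as well. The count of 10 therefore follows in part from the filter. Of 8 copies from 95% to under 99% identity, 1 was higher. Gm13394, which is 99.9% identical to Gapdh, had 260 and 247 TPM in the SAFB libraries, against 459 and 381 TPM in the IgG libraries. Its listed TPM was thus above that of Gapdh in each library. The log2 fold change was -0.72 (limma, adjusted p = 0.0169). It shares a run of 654 bases exactly with Gapdh, and which gene the reads there came from was not tested. Gm4735, a copy of Eno1 with 99.6% identity, had 102 and 114 TPM in the SAFB libraries, against 202 and 188 TPM in the IgG libraries, and fell by 0.84 (limma, adjusted p = 0.0100). With the GC trend removed neither passed, Gm13394 at -0.26 and Gm4735 at -0.36. Pgam1-ps2, identical to Pgam1 over its whole length, overlapped between the groups as Pgam1 did, with 41.4 and 36.8 TPM in the SAFB libraries and 58.2 and 35.9 TPM in the IgG libraries.

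Several diverged copies of Gapdh and Ldha were higher. Gm17068, with 91.3% identity to Gapdh, had 94.0 and 97.7 TPM in the SAFB libraries, against 46.1 and 18.8 TPM in the IgG libraries (log2 fold change 1.67, limma, adjusted p = 0.0420). Gm12403, with 90.9% identity, had 50.8 and 51.1 TPM in the SAFB libraries, against 13.6 and 8.997 TPM in the IgG libraries (2.10, limma, adjusted p = 0.00853). For both copies the groups did not overlap, and in the SAFB RIP Gm17068 stood close to the level listed for Gapdh. Gm13315, a copy of Ldha with 91.7% identity, had 64.2 and 54.4 TPM in the SAFB libraries, against 20.2 and 6.55 TPM in the IgG libraries (2.25, limma, adjusted p = 0.0331). Tpi-rs5, with 89.7% identity to Tpi1, had 15.96 and 13.3 TPM in the SAFB libraries, against 0.588 and 1.70 TPM in the IgG libraries. Since only 1 IgG library reached 1 TPM, it depended on the SAFB libraries to pass the filter, and its test is not given. Ldha-ps2 at 1.57 was also higher (limma, adjusted p = 0.0280). Tpi-rs2, which passed the filter through the SAFB libraries alone, had 7.09 and 8.24 TPM in the SAFB libraries and 0 and 0.375 TPM in the IgG libraries. Gm5276 and Gm8767, copies of Aldoa, had at most 2.32 TPM in the SAFB libraries and were listed at 0 in both IgG libraries. Pgk1-rs7 (Pgk1), Gm6560 (Pkm), Gm5855 (Eno1) and Gm17815 (Ldha), with at most 4.58 TPM in any library, did not pass. After median centring Gm12403 still passed, while Gm17068 at 1.21, Gm13315 at 1.79 and Ldha-ps2 at 1.11 did not.

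**Figure D3:**
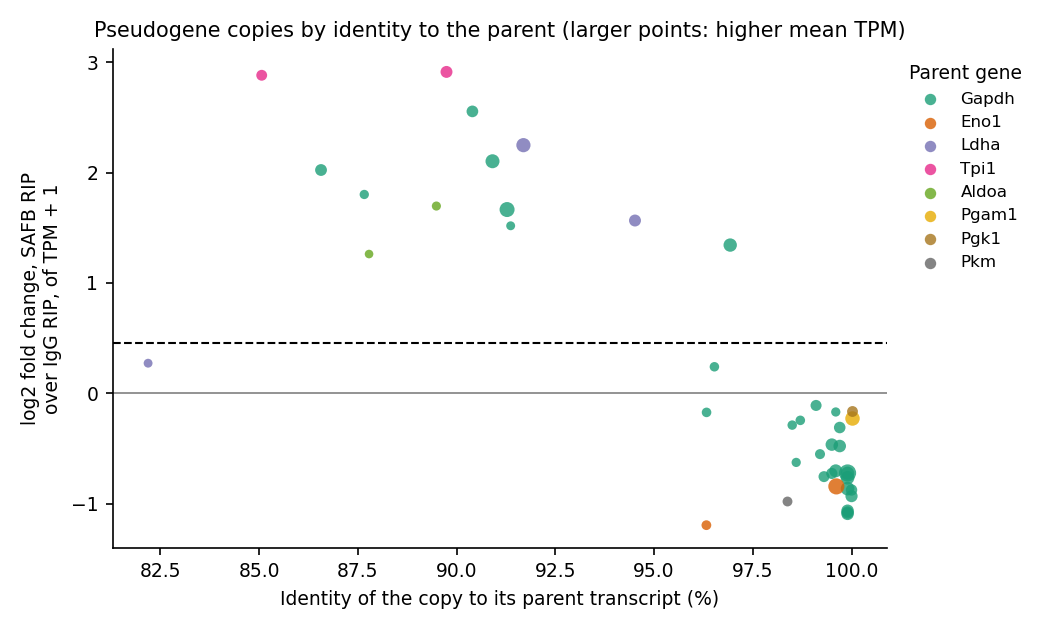
Identity of each tested pseudogene copy to its parent transcript in percent against its log2 fold change, SAFB RIP over IgG RIP, of TPM + 1, coloured by parent gene and sized by mean TPM. The 21 copies with 99% identity or more lie between -1.09 and -0.11, and the 13 copies under 95% between 0.27 and 2.91. Of those 13, 5 passed the filter through the SAFB libraries alone and so had to lie above the IgG libraries. Tpi-rs5, the highest point, depended on the SAFB libraries as well.

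The bounds of 95% and 99% identity were chosen after the values were seen, so the classes are described without a test. Among the 25 copies in the table with 99% identity or more, 24 were above 0 in some library, of which 17 lay below the IgG libraries in both SAFB libraries, 0 above, and 7 overlapped. Of 198 copies under 95%, 163 were listed at 0 throughout, and of the other 35, 18 lay above, 1 below and 16 overlapped. Those 18 include the 5 that had passed the filter through the SAFB libraries alone. For comparison, 52.3% of all genes tested lay above and 21.4% below. The summed level of the first class was 531 and 533 TPM in the SAFB libraries, against 974 and 811 TPM in the IgG libraries. The summed level of the diverged class was 281 and 277 TPM in the SAFB libraries, against 91.5 and 48.2 TPM in the IgG libraries. Of the 13 diverged copies tested, 5 lie within another gene on the same strand, against 2 of the 21 tested copies with 99% identity or more. Gm17068 lies in Gnaq, at 60.1 and 61.2 TPM in the SAFB libraries and 72.4 and 45.2 TPM in the IgG libraries, Gm12403 in Ube2r2, Gm13315 in Cacnb2, Ldha-ps2 in Ccdc30 and Tpi-rs2 in Veph1. Cacnb2 at 1.03 and Ccdc30 at 1.22 were called higher as well (limma, adjusted p = 0.0232 and 0.0261), and Gnaq, Ube2r2 and Veph1 did not pass. The part of the host transcripts in the copies' values was not tested.

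Most of the TPM listed for Gapdh and its copies together was assigned to the copies. The copies took 86.0% and 85.1% of the family's TPM in the SAFB libraries, against 78.0% and 79.9% in the IgG libraries. Summed with its 195 copies in the table, Gapdh had 693 and 702 TPM in the SAFB libraries, against 1021 and 799 TPM in the IgG libraries. The groups did not overlap, but the log2 fold change was -0.37 ± 0.15 and no longer passed (limma, adjusted p = 0.117). Ldha summed with its copies stood at -0.51 ± 0.09, against -0.98 for the gene alone, and still passed (limma, adjusted p = 0.0162). Eno1 with its copies, Eno1b not among them, stood at -0.79 ± 0.09 (limma, adjusted p = 0.00835). Aldoa and Pkm were nearly as without their copies, at -1.09 and -0.72. Hk2 and Pfkl have no matched copy.

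**Figure D4:**
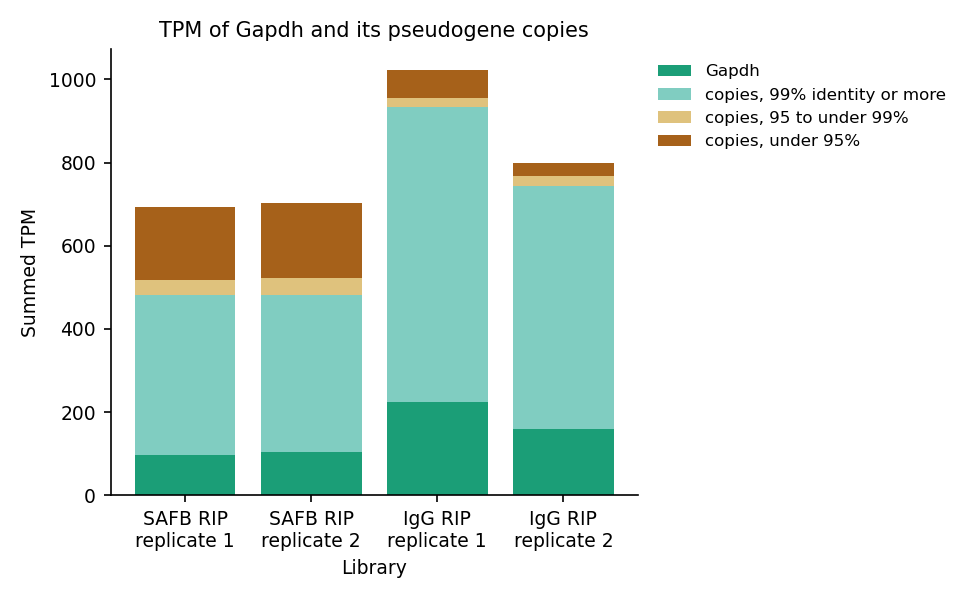
Stacked bars of summed TPM in each library for Gapdh and for its pseudogene copies by identity class. The part of copies under 95% identity is 176 and 180.3 TPM in the SAFB libraries and 67.2 and 32.2 TPM in the IgG libraries, whereas copies of 99% or more hold 384 and 377 TPM in the SAFB libraries and 710 and 583 TPM in the IgG libraries.

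Other isoforms of these enzymes mostly did not pass as deposited. Of 22 examined, 14 were tested, 2 fell, 0 rose and 12 did not pass, with a median log2 fold change of -0.25. The shares over all genes tested were 8.30% lower and 29.8% higher. Aldoc, the brain form of aldolase, had 2.19 and 2.34 TPM in the SAFB libraries, against 12.05 and 11.6 TPM in the IgG libraries (-1.97 ± 0.31, limma, adjusted p = 0.0137). Eno1b, a retrogene copy of Eno1 on chromosome 18, had 48.8 and 54.6 TPM in the SAFB libraries, against 146 and 136 TPM in the IgG libraries (-1.43 ± 0.12, limma, adjusted p = 0.00531). Both were lower without overlap, as their relatives Aldoa and Eno1 were, and Eno1b may share reads with Eno1. Eno3, for the muscle form of enolase, had 71.1 and 58.2 TPM in the SAFB libraries and 101 and 63.6 TPM in the IgG libraries, and did not pass at -0.32. Gpi1, for glucose phosphate isomerase, at -0.39, and Ldhd, for a mitochondrial lactate dehydrogenase, at -0.52 did not pass. After median centring 6 of the 14 isoforms were lower and 0 higher, against 17.6% and 16.4% of all genes tested. Gpi1 at -0.85 and Ldhd at -0.98 were among those 6 (limma, adjusted p = 0.0147 and 0.0200).

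Genes for the entry of glucose, the fate of pyruvate and their control stood near the background. Of 25 examined, 23 were tested, 8 rose, 1 fell and 14 did not pass, with a median of 0.40 against 0.46 for all genes tested. Of all those genes 29.8% were higher and 8.30% lower. Tigar, for a phosphatase that lowers the sugar activator of phosphofructokinase, had 36.8 and 36.6 TPM in the SAFB libraries, against 9.73 and 12.8 TPM in the IgG libraries (1.63 ± 0.23, limma, adjusted p = 0.0112). Pdha1, for the catalytic subunit of pyruvate dehydrogenase, had 179 and 153 TPM in the SAFB libraries, against 71.4 and 89.8 TPM in the IgG libraries (1.04 ± 0.16, limma, adjusted p = 0.0138). These genes and Pdhb, for the other subunit of that enzyme component, at 0.90, passed after median centring too. Pdk1 (1.06) and Pdk4 (0.999), for kinases that inhibit pyruvate dehydrogenase, Pfkfb2 (0.95), for an enzyme that sets the activator of phosphofructokinase, Mpc1 (0.70), for the mitochondrial pyruvate carrier, and Slc2a2 (0.36), for the liver glucose transporter, rose as deposited and did not pass after centring. Bsg, for basigin, a partner of lactate transporters, had 501 and 460.4 TPM in the SAFB libraries, against 853 and 777 TPM in the IgG libraries. It was the gene of this list that fell (-0.76 ± 0.11, limma, adjusted p = 0.0115), and it did not pass with the GC trend removed, at -0.09. Slc2a2 turned to -0.05 there and Pdk1, Pdk4 and Mpc1 did not pass.

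**Figure D5:**
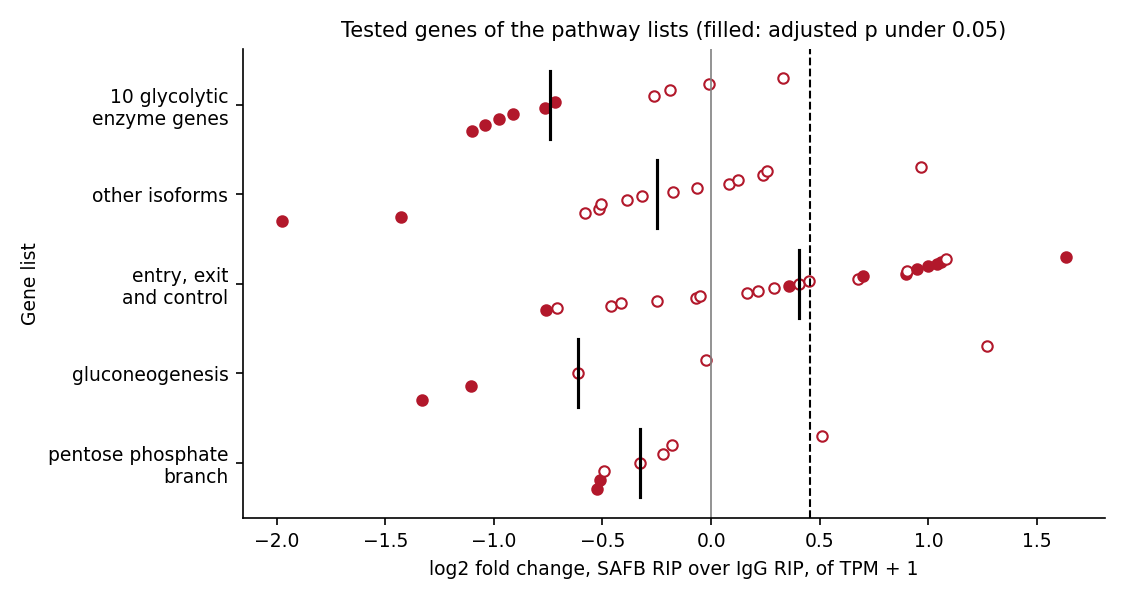
Log2 fold change of TPM + 1, SAFB RIP over IgG RIP, for every tested gene of the 5 lists, filled where the adjusted p was under 0.05, with a bar at each list's median and a dashed line at the median of all genes tested, 0.46. The medians are -0.74 for the 10 glycolytic enzyme genes, -0.25 for other isoforms, 0.40 for entry, exit and control, -0.61 for gluconeogenesis and -0.33 for the pentose phosphate branch.

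In gluconeogenesis and in the pentose phosphate branch 2 genes each fell and 0 rose. Among all genes tested 8.30% were lower and 29.8% higher. Of 8 gluconeogenic genes 5 were tested. G6pc3, for a widely expressed glucose phosphatase, stood at -1.33 ± 0.28, and Slc37a4, for the transporter that feeds it, at -1.10 ± 0.24 (limma, adjusted p = 0.0250 and 0.0264). Pck2 at -0.02 and Pcx at -0.61 did not pass. Pck1, the cytosolic enzyme typical of gluconeogenic liver, was listed at 0 in every library, and G6pc reached at most 0.237 TPM. Of 7 genes of the pentose phosphate branch, which makes NADPH, 7 were tested, and those that fell were Taldo1 at -0.51 ± 0.13 and Pgd at -0.53 ± 0.14 (limma, adjusted p = 0.0398 and 0.0443). Tkt, the most abundant of them, had 378 and 379 TPM in the SAFB libraries and 391 and 471 TPM in the IgG libraries, and did not pass at -0.18, and Pgls did not at -0.22. With the GC trend removed G6pc3 at -0.64, Slc37a4 at -0.70, Taldo1 at -0.27 and Pgd at -0.21 did not pass.

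Among genes outside these lists that averaged at least 100 TPM, those nearest to the mean log2(TPM + 1) of the members over the 4 libraries, by Euclidean distance, were Bnip2 (0.169), Mif (0.175), Kif1c (0.180), Dctn2 (0.199) and Zswim8 (0.209). Mif had 138 and 133 TPM in the SAFB libraries, against 246 and 202 TPM in the IgG libraries, and fell by 0.71 (limma, adjusted p = 0.0190). Kif1c at -0.40 and Zswim8 at -0.66 were lower as well, though with the GC trend removed Mif at 0.05, Kif1c at 0.20 and Zswim8 at 0.09 turned sign and did not pass. Bnip2 at -0.41 and Dctn2 at -0.48 did not pass as deposited. With 4 libraries and a mean over members of unlike level, the likeness is a description. Since the members' mean is lower in the SAFB RIP, the choice favours genes that are lower there. Their calls are thus no separate result.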

How the data were processed

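RNA of 2 SAFB RIP and 2 IgG RIP libraries from AML12 nuclei was depleted of ribosomal RNA and sequenced from strand-specific libraries, per the labels' protocols. The authors deposited 1 table of TPM values. HISAT2, HTSeq, DESeq2, StringTie and the build mm10 are named in the submitters' processing notes. Which of these tools made the TPM, with which annotation and strand setting, is not given in the sources used here, so values of overlapping genes are uncertain. Entries sharing an identifier (14 entries, 6 identifiers) were summed, and 52042 of 52189 identifiers were found in GENCODE M21, which supplied models and sequences on the same assembly.

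Genes that reached 1 TPM in 2 or more libraries were fitted as log2(TPM + 1) with limma 3.58.1 in R 4.3.3, with a variance trend. The fit as deposited had 2 residual degrees of freedom, to which the prior contributed 2.50 more. Fits without a library, and the fit with a replicate block, had fewer, each with a prior of its own. Calls in those fits rest more on the prior. Fold changes of low genes are understated. No exact permutation test was used, because with 2 libraries a group its smallest p is 0.333. Pseudogenes were matched with BLAST 2.17.0. The procedure was tested on simulated data.

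The members, gene lists and tests were chosen with earlier results of these data known. The text names all members, the genes of each pathway list that passed (up to 8 by fold change) and the 4 most abundant, the 3 most abundant copies of a member where a comparison turns on them, and the 5 genes most like the members. Host genes of pseudogenes, and the copies with printed sequence, were chosen after their values were seen. A gene of the pathway lists is not reported here and was left out of their counts. In all, 21 alternatives were run, of which 6 were chosen after seeing the data.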

Additional observations from a re-analysis of the deposited data

How the results depend on the processing

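Of 1062 values of 52 named genes under the alternatives, 808 kept direction and side of the threshold, 161 no longer passed, 53 newly passed and 40 changed sign. Of those 40, 5 had passed as reported and 0 passed under the alternative. Members called lower, 6 as deposited, were 3 with the GC trend removed and 5 to 8 under the other scalings, filters and pseudocounts. Leaving out a library with the filter remade, 6 were lower each time. With the genes of all 4 libraries kept, 0 were without SAFB replicate 1 or 2. The cause was not tested. Depth is unknown, so the precision of low genes such as Hk2 is unknown too; at least 5 TPM in 2 libraries removes it.

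The members' median of -0.74 became -0.99 without the 3 ribosomal DNA entries, -0.26 with the GC trend removed, -1.20 with median centring, -0.44 with pseudogenes summed in, -1.04 among protein-coding genes alone, -0.98 with quantile normalization and -0.59 with the length trend removed. Leaving out a library gave -0.78 to -0.69.

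Over all genes 4964 were higher and 1382 lower. Median centring gave 2736 higher and 2935 lower, protein-coding genes alone 2600 and 2322, and quantile normalization 2758 and 2986. Removing the GC trend gave 799 lower. Leaving out a library with the filter remade gave 2034 to 7781 higher and 571 to 2631 lower. With the genes of all 4 libraries kept, 767 and 782 were higher and 7 and 7 lower without SAFB replicate 1 and 2, 2262 were lower without IgG replicate 1, and 7627 were higher and 2566 lower without IgG replicate 2.

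Of the 49 pathway genes tested, 8 were higher and 7 lower. Higher were 4 without the ribosomal DNA entries, 5 with the GC trend removed, 3 with median centring, 5 among protein-coding genes and 4 with quantile normalization. Lower were 4 with the GC trend removed, 16 with median centring, 4 without the variance trend, 13 among protein-coding genes and 14 with quantile normalization. Leaving out a library gave 4 to 15 higher and 2 to 15 lower with the filter remade. With the genes of all 4 libraries kept, 0 were higher and 0 lower without SAFB replicate 1 or 2, and 15 higher and 15 lower without IgG replicate 2.

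With a replicate block the same 6 members were lower, 4797 genes were higher and 1264 lower, and pathway genes higher were 5 rather than 8, with 7 lower. Among named genes Pgd, Mpc1, Pdk4, Slc2a2 and Kif1c did not pass with the block (limma, adjusted p = 0.0703, 0.0713, 0.0795, 0.0805 and 0.0715), and Ldhd did (limma, adjusted p = 0.0468). The deviations of same-numbered libraries had a correlation of -0.02 across genes. Whether equal numbers share a lysate is not stated, and this value does not settle it.

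Signs changed as follows. With the GC trend removed the values were Eno3 0.037, Kif1c 0.20, Ldhd 0.063, Mif 0.047, Pck2 0.25, Pcx 0.069, Pgam1 0.14, Pgam1-ps2 0.42, Pgls 0.48, Slc2a2 -0.054, Tkt 0.12, Tpi1 0.040 and Zswim8 0.087. With the length trend removed they were Pck2 0.070 and Pgam1 0.17. Median centring gave Gm17815 -0.19, Hk2 -0.13 and Slc2a2 -0.10, and quantile normalization Gm17815 -0.68 and Hk2 -0.42. Leaving out a library gave a range of -0.43 to 0.38 for Gm17815 and -0.00028 to 0.66 for Hk2, lowest without IgG replicate 1 and IgG replicate 2. It gave -0.22 to 0.18 for Pck2, with 0.094 without SAFB replicate 1, and -0.18 to 0.16 for Pgam1, with 0.088 without SAFB replicate 2. The range was -0.65 to 0.017 for Eno3, -0.56 to 0.12 for Pgam1-ps2, -0.33 to 0.015 for Pgk1-rs7 and -0.49 to 0.045 for Pgls.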
